A study of Mus musculus with 9 samples.

Results

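The lymphoid priming genes described here are 9 genes that mark or direct the first steps of a blood stem or progenitor cell towards the lymphoid lineages: Dntt, Rag1, Rag2, Il7r, Ebf1, Ccr9, Satb1, Notch1 and Ikzf1. They were taken by symbol from a table of 38215 genes, and all 9 passed the filter on low counts that left 14944 genes tested. The label Ebf1 stands on 2 rows; the protein-coding row was used, and the other, a processed pseudogene, held at most 3.23 counts in a library.

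RNA was sequenced from bone marrow of C57BL/6J mice. The cells had been sorted as negative for lineage markers and positive for Sca1 and Kit (LSK), the fraction that holds haematopoietic stem cells and multipotent progenitors, and as positive for both GFP and mCherry. One group, titled EV, has 5 mice with the genotype Jak2V617F, an activating mutation of the kinase Jak2 found in myeloproliferative neoplasms. The other has 4 mice with the genotype Jak2V617F-sgZrsr2, described as having lost Zrsr2, a protein of the spliceosome that acts on U12-type introns. Both groups carry Jak2V617F and received tamoxifen, so the comparison holds no group without the mutation. The age of the mice and the promoter or Cre line behind the mutation are not given in the sources used here. The labels spell out neither EV nor sg. They name mice by number (1 to 5 with EV; 1, 2, 3 and 5 with sgZrsr2), and whether the libraries of a group came from separately handled cell sorts is not stated, so the p-values measure the spread between these libraries.

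Lymphoid priming is the low expression of lymphoid genes in progenitors that are still multipotent. Ikaros (Ikzf1) and Satb1 act on chromatin and open lymphoid genes, Notch1 is the receptor that directs progenitors to the T lineage, and the receptor for interleukin 7 (Il7r) carries the survival signal of early lymphoid cells. Ebf1 then commits cells to the B lineage, Rag1 and Rag2 cut the antigen receptor genes, Dntt adds bases that no template encodes at the cut ends, and Ccr9 is a chemokine receptor that guides progenitors to the thymus. In bulk RNA, fewer cells that express a gene and less RNA per cell cannot be told apart.

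The stretch of 250 bases before the RefSeq start site (GRCm38.p6, 5′ to 3′ on the strand of the gene) is shown for 4 of the genes whose levels moved together over the mice, and for Ikzf1, which hardly varied. Capitals mark E-boxes, CANNTG on both strands, the motif bound by E proteins, transcription factors of early lymphoid cells. Ikzf1 has 2 start sites in the table, and the more upstream one is printed.
Dntt, chr19:41029025-41029274, plus strand: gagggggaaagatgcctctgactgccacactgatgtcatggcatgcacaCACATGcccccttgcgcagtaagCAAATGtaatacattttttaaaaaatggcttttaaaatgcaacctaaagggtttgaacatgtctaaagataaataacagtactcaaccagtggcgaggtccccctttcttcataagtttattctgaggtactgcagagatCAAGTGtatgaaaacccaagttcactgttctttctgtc
Rag1, chr2:101649533-101649782, minus strand: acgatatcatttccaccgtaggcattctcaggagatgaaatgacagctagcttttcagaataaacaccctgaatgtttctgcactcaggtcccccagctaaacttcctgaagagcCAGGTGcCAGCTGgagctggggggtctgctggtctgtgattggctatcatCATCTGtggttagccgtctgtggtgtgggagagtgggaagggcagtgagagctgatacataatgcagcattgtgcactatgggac
Rag2, chr2:101624462-101624711, plus strand: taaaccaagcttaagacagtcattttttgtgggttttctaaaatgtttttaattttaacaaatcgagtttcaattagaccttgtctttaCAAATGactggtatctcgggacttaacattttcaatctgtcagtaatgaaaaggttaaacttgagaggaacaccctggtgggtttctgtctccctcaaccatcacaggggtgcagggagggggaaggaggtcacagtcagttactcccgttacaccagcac
Il7r, chr15:9529877-9530126, minus strand: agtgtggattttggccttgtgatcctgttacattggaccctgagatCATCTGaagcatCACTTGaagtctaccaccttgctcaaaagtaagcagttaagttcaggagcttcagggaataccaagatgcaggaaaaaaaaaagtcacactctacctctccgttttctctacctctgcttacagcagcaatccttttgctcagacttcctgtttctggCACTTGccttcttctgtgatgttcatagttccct
Ikzf1, chr11:11685675-11685924, plus strand: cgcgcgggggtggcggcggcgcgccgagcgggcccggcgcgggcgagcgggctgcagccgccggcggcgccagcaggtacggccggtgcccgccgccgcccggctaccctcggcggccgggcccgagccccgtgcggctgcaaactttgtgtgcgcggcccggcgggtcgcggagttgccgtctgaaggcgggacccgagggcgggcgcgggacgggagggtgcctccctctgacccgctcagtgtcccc

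The windows of Dntt, Rag1 and Il7r each held 3 E-boxes, that of Rag2 held 1 and that of Ikzf1 held 0. Of all 32851 windows of this length, 66.2% held at least 1, and the median was 1. All 9 genes had a window, 15 in all with second start sites, and 8 of the 15 held an E-box. Of the genes not printed that also moved with Dntt, Notch1 had 0 E-boxes and Ccr9 had 2. The windows of Ebf1 had 0 and 1. The printed windows therefore do not show that E-boxes went with levels that moved together. The core TGGGAA, which occurs in sites of Ikaros and of the Notch partner RBPJ, was found in 3 of the 15 windows against 21.6% of all windows, and the RUNX core TGTGGT in 2 of 15 against 14.05%. In the Rag1 window both RUNX matches, 81 and 67 bases before the start, lie near the E-box at 85 bases, and the first shares bases with it. The PU.1 motif GAGGAAGT (2.44% of all windows) was in none of the 15. All motifs were searched on both strands. The printed Ikzf1 window had 82.0% G and C, and the 4 others 41.2% to 50.8%. A match is a description of letters and no evidence of binding.

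Between 23238264 and 45585531 expected counts per library lay behind the levels, which are given as CPM, the count relative to the TMM-scaled total of its library. Zrsr2 itself was at 50.6 to 62.2 CPM with EV and 31.7 to 44.4 CPM with sgZrsr2. The markers that define the sorted cells were present in every library, with Kit at 247 to 632 CPM, Cd34 at 544 to 705 CPM, Flt3 at 227 to 504 CPM and Ly6a, which encodes Sca1, at 14.8 to 49.3 CPM. The 10 erythroid markers summed to 94.6 CPM in EV mouse 5 and to 182 and 124 CPM in sgZrsr2 mice 3 and 5, against 20.3 to 59.9 CPM in the other 6 libraries. The libraries of sgZrsr2 mice 1 and 2 were the nearest pair of all, with a median difference of 2.82% as a coefficient of variation over 2396 genes of at least 100 CPM. Their counts differed by more than random sampling of reads gives (chi-square of 9.32 per degree of freedom). PCR reads without molecular identifiers are not independent molecules, so this value cannot show whether the 2 libraries came from separate RNA. They were kept as 2 samples, as the labels name 2 mice.

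No difference between the groups was called for any of the 9 genes after adjustment. In edgeR's quasi-likelihood test 0 of 9 passed a Benjamini-Hochberg adjusted p of 0.05, as did 0 of all 14944 genes (0%). The DESeq2 Wald test called 0 of 9, and 26 of the 22285 genes to which it gave a p. At an unadjusted p under 0.05 there were 0 of 9 in edgeR, where the share over all genes was 6.85%, and 1 of 9, Dntt, in DESeq2 (adjusted p = 0.598), where the share over all genes was 6.17%. The fitted log2 fold change (sgZrsr2 minus EV) was below 0 for 8 of the 9, as for 51.5% of all genes, with a median of -0.22 against -0.01 over all genes. Without EV mouse 1 it was below 0 for 5 of the 9, with a median of -0.05, and without sgZrsr2 mouse 3 for all 9, with a median of -0.997. For 3 of the 9, Dntt, Rag1 and Ebf1, it was below -0.5 (5.99% of all genes), and for 2, Rag1 and Ebf1, below -1 (1.37%). The groups overlapped in CPM for all 9 genes, while 3.06% of all genes had groups that did not.

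**Figure D1:**
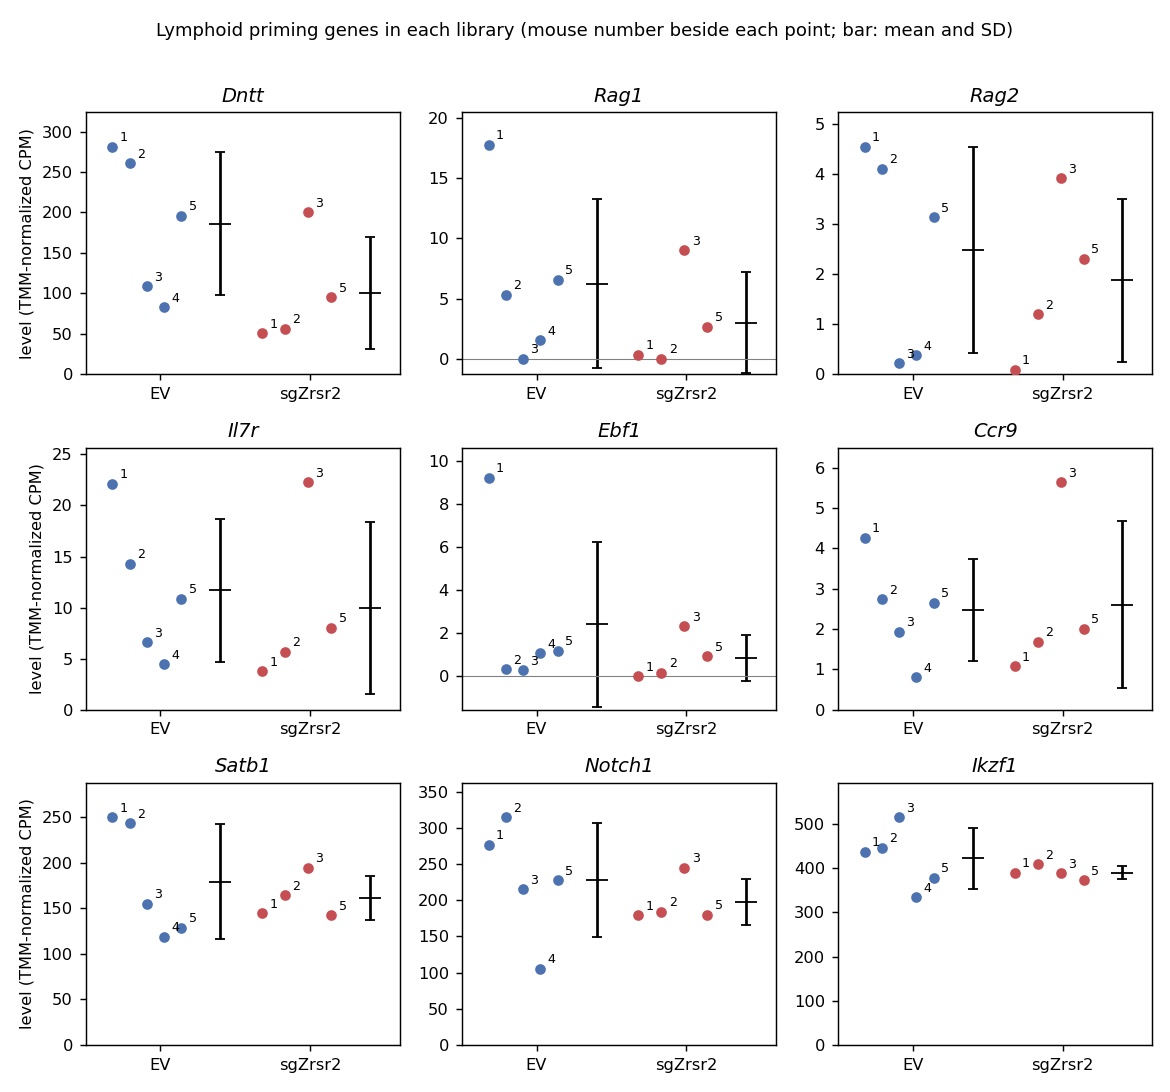
Level of each of the 9 genes (vertical axis, TMM-normalized CPM, linear, one scale per gene) in each library, with 5 EV libraries in blue and 4 sgZrsr2 libraries in red. Numbers are mouse numbers and black bars are the mean and SD of the group. EV mice 1 and 2 and sgZrsr2 mouse 3 are high in most panels and the groups overlap in every panel.

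Dntt encodes terminal deoxynucleotidyl transferase, the enzyme that adds untemplated bases to antigen receptor junctions and an early mark of lymphoid priming. It lies on chromosome 19 (ENSMUSG00000025014; 41029275 to 41059523, plus strand, coordinates as deposited, GRCm38). It was at 281, 261, 109, 82.6 and 196 CPM in mice 1 to 5 of the EV group. With sgZrsr2 it was at 51.0, 56.5, 200.1 and 95.1 CPM in mice 1, 2, 3 and 5. EV mice 1, 2 and 5 and sgZrsr2 mouse 3 were high, and 2 of the 4 sgZrsr2 libraries lay below every EV library. The means were 186 ± 88.6 CPM (SD, n = 5) and 101 ± 69.1 CPM (SD, n = 4), a log2 fold change of -0.88 (SE 0.47; edgeR adjusted p = 0.714). The two-sided exact permutation test of the difference in mean CPM gave p = 0.167, where 0.0159 is the smallest p the design allows. The size of the difference varied with the libraries left out. Without sgZrsr2 mice 1 and 2 together, the lowest for Dntt and the nearest pair of libraries, the log2 fold change was -0.33 (edgeR adjusted p = 0.744). Left out singly, these mice gave -0.67 and -0.69, and EV mice 1 and 2 gave -0.69 and -0.73. Without sgZrsr2 mouse 3 the log2 fold change was -1.46, with an edgeR p of 0.00574 and an adjusted p of 0.920. It ran from -1.07 to -0.67 without any 1 of the other 8 libraries.

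Rag1 and Rag2 encode the subunits of the recombinase that cuts antigen receptor genes, and they are neighbours on chromosome 2 (Rag1, ENSMUSG00000061311, 101638282 to 101649501, minus strand; Rag2, ENSMUSG00000032864, 101624718 to 101632529, plus strand). Exons of both share bases with the gene B230118H07Rik on the minus strand, and whether reads were assigned by strand is not given in the sources used here; all their expected counts were whole numbers. Rag1 was at 17.8, 5.30, 0, 1.55 and 6.57 CPM in mice 1 to 5 of the EV group and at 0.356, 0, 9.001 and 2.67 CPM in mice 1, 2, 3 and 5 of the sgZrsr2 group. A count of 0 allows up to 0.0935 CPM in EV mouse 3 and 0.1199 CPM in sgZrsr2 mouse 2, for counting error only. Rag1 was thus undetected in 1 mouse of each group and at 5 CPM or more in 4 libraries, 3 with EV and 1 with sgZrsr2.

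Rag2 was at 4.55, 4.11, 0.218, 0.377 and 3.14 CPM in mice 1 to 5 of the EV group. With sgZrsr2 it was at 0.0890, 1.1996, 3.92 and 2.31 CPM in mice 1, 2, 3 and 5. The same EV libraries, mice 1, 2 and 5, were high for both recombinase genes, and so was sgZrsr2 mouse 3. In sgZrsr2 mouse 2 there were 30 counts of Rag2 and 0 of Rag1, in libraries made from 5 ng of RNA without molecular identifiers. The log2 fold changes were -1.03 (SE 1.36; exact permutation p = 0.508) for Rag1 and -0.38 (SE 0.95; exact permutation p = 0.611) for Rag2. Without EV mouse 1 they were -0.14 and -0.05, without sgZrsr2 mouse 3 they were -2.58 and -1.03, and without sgZrsr2 mouse 1 that of Rag2 was 0.0035.

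Il7r encodes the alpha chain of the interleukin 7 receptor, the surface mark of common lymphoid progenitors (ENSMUSG00000003882; chromosome 15, 9506161 to 9529876, minus strand). It was at 22.1, 14.3, 6.61, 4.46 and 10.9 CPM in mice 1 to 5 of the EV group. In mice 1, 2, 3 and 5 of the sgZrsr2 group it was at 3.78, 5.68, 22.3 and 8.04 CPM. The highest library of all was sgZrsr2 mouse 3 and the lowest sgZrsr2 mouse 1, so the sgZrsr2 group alone spanned a 5.89-fold range. The means, 11.7 ± 6.98 and 9.95 ± 8.42 CPM (SD), differed by a log2 fold change of -0.22 (SE 0.56; exact permutation p = 0.722). Its direction turned with single mice: it was 0.14 without EV mouse 1, 0.04 without sgZrsr2 mouse 1 and -0.997 without sgZrsr2 mouse 3.

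Ebf1 encodes the factor that commits progenitors to the B lineage (ENSMUSG00000057098; chromosome 11, 44617317 to 45008091, plus strand). It was low, at 0.332, 0.281, 1.07 and 1.19 CPM in EV mice 2 to 5 and at 0, 0.160, 2.34 and 0.918 CPM in mice 1, 2, 3 and 5 of the sgZrsr2 group. EV mouse 1 stood far above them at 9.24 CPM, from 321.38 counts. A count of 0 allows up to 0.133 CPM in sgZrsr2 mouse 1. The log2 fold change of -1.46 (SE 1.22; exact permutation p = 0.706) rested on that 1 mouse: without it the value was 0.29. EV mouse 1 was also the highest library for 9 of the 16 tested genes of a B lineage list, with Vpreb1 and Igll1, which encode the surrogate light chain, at 7.77 and 7.17 CPM against at most 2.14 and 1.68 CPM in the other 8 libraries.

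Ccr9, the thymus-homing receptor (ENSMUSG00000029530; chromosome 9, 123678439 to 123783457, plus strand), was the only member with a fitted value above 0. It was at 4.26, 2.74, 1.93, 0.799 and 2.65 CPM in mice 1 to 5 of the EV group and at 1.07, 1.68, 5.64 and 2.003 CPM in mice 1, 2, 3 and 5 of the sgZrsr2 group. The highest library was sgZrsr2 mouse 3, followed by EV mouse 1. The log2 fold change was 0.08 (SE 0.54; exact permutation p = 0.913). It was -0.64 without sgZrsr2 mouse 3, -0.15 without EV mouse 4 and 0.37 without EV mouse 1. Exons of 3 other genes in the table share bases with those of Ccr9, on either strand, so its level is uncertain.

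The 3 regulators Ikzf1, Notch1 and Satb1 were abundant and varied less. Ikzf1 encodes Ikaros, a zinc finger protein needed for all lymphoid lineages (ENSMUSG00000018654; chromosome 11, 11685003 to 11772926, plus strand). It was at 437, 447, 515, 335 and 378 CPM in mice 1 to 5 of the EV group, and at 389, 409, 389 and 373 CPM in mice 1, 2, 3 and 5 of the sgZrsr2 group. All 4 sgZrsr2 libraries lay between the lowest and the median EV library, and they differed from each other by at most 1.095-fold. The log2 fold change was -0.12 (SE 0.13; exact permutation p = 0.421); leaving out EV mouse 4 gave -0.19 and leaving out EV mouse 3 gave -0.04.

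Notch1 (ENSMUSG00000026923; chromosome 2, 26457903 to 26516663, minus strand) was at 277, 315, 215, 106 and 227 CPM in mice 1 to 5 of the EV group. In mice 1, 2, 3 and 5 of the sgZrsr2 group it was at 179.5, 184, 245 and 179.9 CPM. EV mouse 4 was the lowest library and EV mouse 2 the highest, so the sgZrsr2 values lay inside the EV range. The log2 fold change was -0.21 (SE 0.26; exact permutation p = 0.484). Leaving out EV mouse 4 gave -0.39 and leaving out EV mouse 2 gave -0.06. Its counts were whole in 2 of the 9 libraries, so some reads were divided with other genes, and exons of 2 genes on the opposite strand share bases with it.

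Satb1 encodes a chromatin organiser of early lymphoid cells (ENSMUSG00000023927; chromosome 17, 51736187 to 51833290, minus strand). It was at 249.97, 244, 155, 119 and 129 CPM in mice 1 to 5 of the EV group and at 145, 165, 194 and 143 CPM in mice 1, 2, 3 and 5 of the sgZrsr2 group. EV mice 1 and 2 were above all other libraries. The log2 fold change was -0.15 (SE 0.23; exact permutation p = 0.587), and 1.14e-05 without EV mouse 1.

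**Figure D2:**
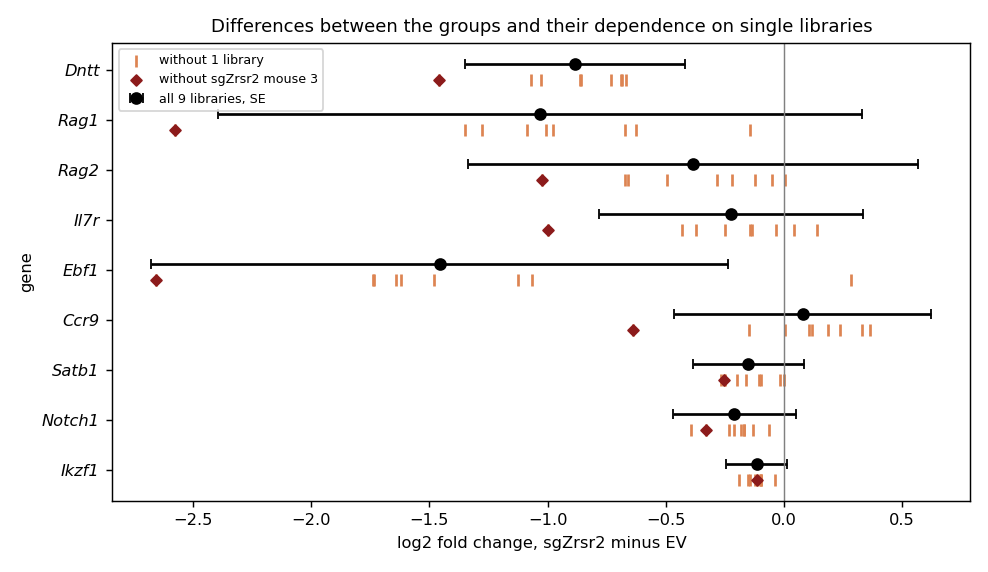
Log2 fold change of each gene (horizontal axis, sgZrsr2 minus EV) from all 9 libraries with its SE (black), from the fits that each leave out 1 library (orange ticks) and from the one without sgZrsr2 mouse 3 (dark red diamonds). Without that mouse the 9 values lie between -2.66 for Ebf1 and -0.11 for Ikzf1.

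On a scale per length (CPM per kilobase of exon, union of all transcripts in GENCODE M21), the levels over the 9 libraries put Ikzf1 first at 70.6 ± 9.08 (SD) and Dntt next at 64.6 ± 38.4. The 2 overlapped, and Dntt, which ran from 22.2 in sgZrsr2 mouse 1 to 123 in EV mouse 1, lay above Ikzf1 in EV mice 1, 2 and 5 and in sgZrsr2 mouse 3. By group, Dntt was above Ikzf1 with EV (81.1 ± 38.7 and 73.1 ± 11.9) and below it with sgZrsr2 (43.9 ± 30.2 and 67.5 ± 2.52). Notch1 followed over all libraries at 15.04 ± 4.32 and Satb1 at 9.01 ± 2.52; these overlapped each other, and the Notch1 range (7.41 to 22.1) did not reach the lowest Dntt value. Il7r came next at 2.34 ± 1.54, with all of its values below those of Satb1. Rag1 (0.727 ± 0.879), Rag2 (0.646 ± 0.524), Ccr9 (0.247 ± 0.151) and Ebf1 (0.177 ± 0.298) were lowest, and each of these overlapped its neighbours in the order. The order of the group means (± SD) changed within both pairs. Rag1 was above Rag2 with EV (0.944 ± 1.06 and 0.724 ± 0.601) and below it with sgZrsr2 (0.455 ± 0.631 and 0.549 ± 0.477). Ebf1 was above Ccr9 with EV (0.248 ± 0.393 and 0.241 ± 0.123) and below it with sgZrsr2 (0.0875 ± 0.109 and 0.253 ± 0.201). Some mice went the other way. Rag1 was below Rag2 in EV mice 2 and 3 and above it in sgZrsr2 mice 1 and 3. Ebf1 was below Ccr9 in EV mice 2, 3 and 5 and in every sgZrsr2 mouse, and its EV mean rested on EV mouse 1 (0.947). The exon length used for Ccr9, 10260 bases, includes exons that share bases with other genes, so its level per length is uncertain.

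The spread between mice of 1 group was large for the genes further along the lymphoid path. The SD of log2 CPM within groups was 0.83 for Dntt, 0.99 for Il7r, 0.92 for Ccr9, 2.01 for Rag2, 2.13 for Ebf1 and 3.21 for Rag1, against a median of 0.31 over all genes tested. It was 0.41 for Satb1, 0.48 for Notch1 and 0.18 for Ikzf1, so that of Ikzf1 was below the median gene. Rag1, Rag2, Ebf1 and Ccr9 rest on few counts, and the part of counting error in their spread was not tested. Dntt rested on 1145 to 11805 counts per library, where counting error is small beside its 3.40-fold range among EV mice and 3.93-fold range among sgZrsr2 mice.

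The mice that were high for one of these genes were mostly high for the others. EV mouse 1 was among the 3 highest libraries for 9 of 9 genes, sgZrsr2 mouse 3 for 8 and EV mouse 2 for 7. EV mouse 4 and sgZrsr2 mouse 1 were each among the 3 lowest for 7 of 9, and sgZrsr2 mouse 2 for 5. High and low libraries thus occurred in both groups. For each library the median over the 9 genes of log2 CPM (0.1 CPM added) minus the EV mean was 0.93, 0.51, -0.60, -1.01 and 0.13 in mice 1 to 5 of the EV group, and -1.39, -0.36, 1.04 and -0.22 in mice 1, 2, 3 and 5 of the sgZrsr2 group. The SD of this value within groups was 0.89, larger than the difference between the groups.

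**Figure D3:**
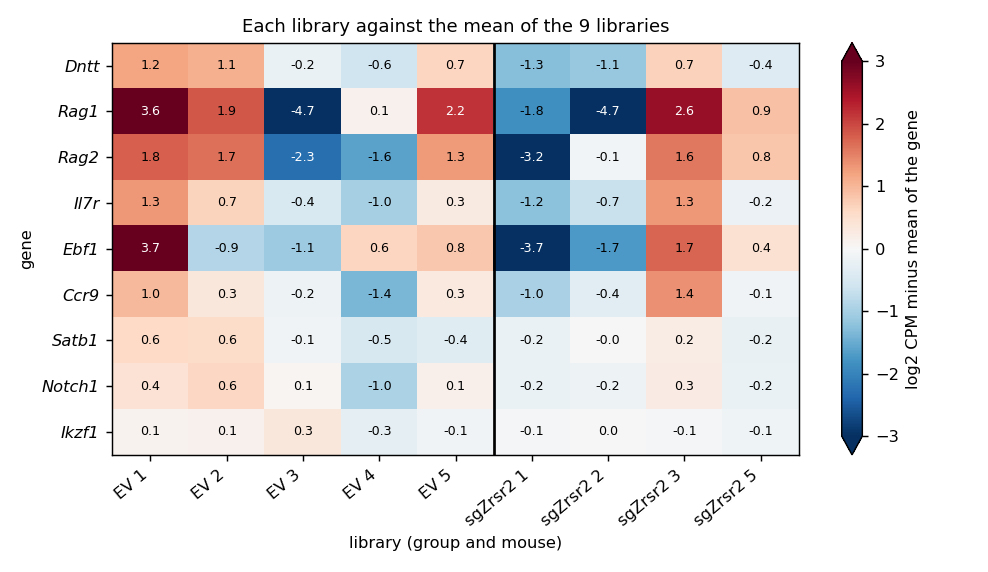
Each gene (rows) in each library (columns), as log2 CPM (prior count 2) minus the mean of that gene over the 9 libraries, with the value printed in each cell and colours limited to -3 and 3. EV mouse 1 and sgZrsr2 mouse 3 are red for nearly all genes and sgZrsr2 mouse 1 blue, while the Ikzf1 row stays near 0.

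Dntt was compared with each other member across the 9 libraries on log2 CPM, in a family of 17 relations with the marker lists given further on. All p-values are two-sided and exact over the 362880 orders, adjusted by Benjamini-Hochberg. They take the 9 libraries of both groups as exchangeable and make no allowance for libraries that are alike. The lowest for Dntt, sgZrsr2 mice 1 and 2, were the nearest pair of libraries (2.82%). The highest, EV mice 1 and 2, were the next nearest (3.76%). The p-values may thus overstate the evidence, and r was not computed without sgZrsr2 mice 1 and 2. The closest was Il7r, with Pearson r = 0.913 (permutation p = 0.00132, adjusted 0.0214) and Spearman rho = 0.917 (permutation p = 0.00131, adjusted 0.0105). Ccr9 (r = 0.802, rho = 0.883), Rag2 (r = 0.784, rho = 0.883), Rag1 (r = 0.768, rho = 0.795) and Notch1 (r = 0.732, rho = 0.900) also passed, with adjusted permutation p-values for r of 0.0394 to 0.0449 and for rho of 0.0105 to 0.0350. Ebf1 (r = 0.723, adjusted permutation p = 0.0531; rho = 0.733, adjusted p = 0.0588), Satb1 (r = 0.654, adjusted permutation p = 0.107; rho = 0.617, adjusted p = 0.137) and Ikzf1 (r = 0.282, adjusted permutation p = 0.603; rho = 0.350, adjusted p = 0.469) did not.

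The 2 libraries farthest from the median of Dntt were EV mice 1 and 2. Without them r was 0.877 for Il7r, 0.819 for Ebf1, 0.781 for Ccr9, 0.690 for Rag2, 0.677 for Rag1 and 0.531 for Notch1. It was 0.187 for Satb1, whose relation with Dntt rested on those mice, and 0.019 for Ikzf1. Each group has fewer than 6 libraries, so no r was computed within a group, and the labels name no batch. All genes of a library share its RNA and its scaling. Of the 36 pairs among the 9 genes 33 had r above 0, with a median of 0.70, and the 3 below 0 paired Ikzf1 with Rag1 (-0.32), Ebf1 (-0.10) and Rag2 (-0.02).

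**Figure D4:**
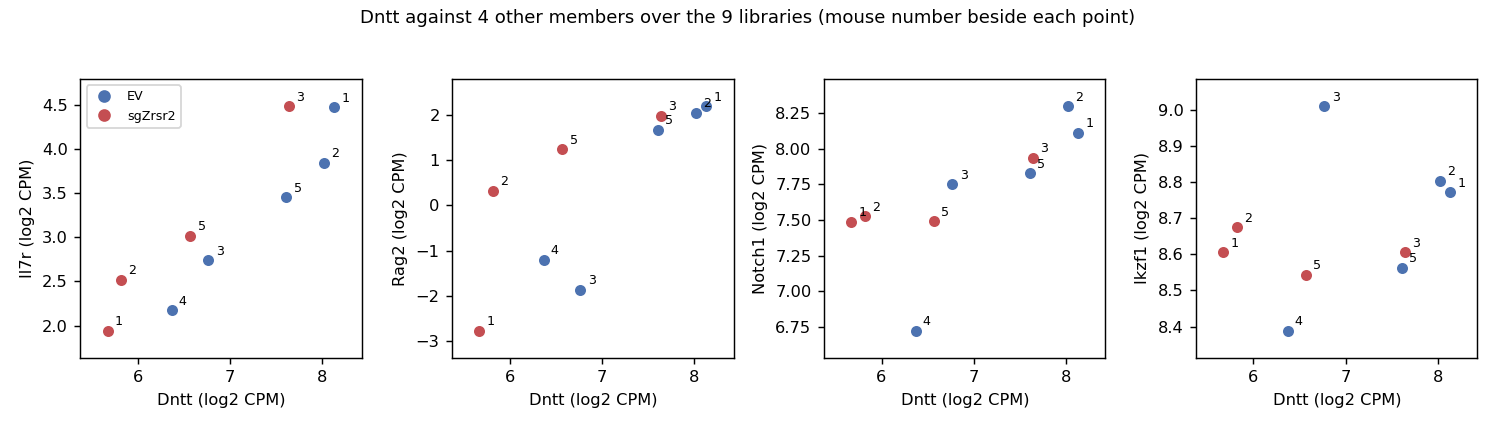
Dntt (horizontal axis, log2 CPM, prior count 2) plotted against Il7r, Rag2, Notch1 and Ikzf1 (vertical axes, log2 CPM) over 5 EV libraries (blue) and 4 sgZrsr2 libraries (red), with mouse numbers. Over all 9 libraries together Il7r follows Dntt (r = 0.913), Rag2 and Notch1 follow with exceptions such as EV mouse 4 for Notch1, and Ikzf1 does not (r = 0.282).

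Over all other genes tested, the 5 with the highest r with Dntt over the 9 libraries were Ripk4 (0.988), Colq (0.964), Gfra1 (0.962), Cmah (0.961) and Pdzd4 (0.951). Being picked for it from all genes, these r are a description and carry no p. Cmah, which encodes an enzyme of sialic acid hydroxylation, was at 45.4, 32.05, 10.8, 6.46 and 28.0 CPM in mice 1 to 5 of the EV group and at 3.25, 4.72, 47.3 and 15.4 CPM in mice 1, 2, 3 and 5 of the sgZrsr2 group. Its high and low mice were the ones of Dntt. Ripk4 was at most 0.633 CPM, so its r rests on few counts. Most like the mean of the 9 standardised genes were Arpp21 (0.972), Stap1 (0.964), A530064D06Rik (0.963), Ets1 (0.961), a transcription factor of lymphoid cells, and Rasal1 (0.956). Ets1 ranged from 10.7 CPM in sgZrsr2 mouse 1 to 30.7 CPM in EV mouse 1.

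Several marker lists of other cell types moved with Dntt over the mice. The sum of 10 plasmacytoid dendritic cell markers was 335 to 1058 CPM with EV and 428 to 1056 CPM with sgZrsr2, and its log2 followed Dntt (r = 0.890, permutation p = 0.00252, adjusted 0.0214; rho = 0.917, adjusted 0.0105; r = 0.826 without EV mice 1 and 2). That sum is mostly Irf8, at 129 to 715 CPM, and Tcf4, at 127 to 213 CPM, which progenitors also express. The receptor Siglech, which marks the mature cells, was at 3.09 to 27.9 CPM, Ly6d at 0.488 to 42.4 CPM, Bst2 at 53.1 to 75.8 CPM, Cox6a2 at 2.49 to 13.1 CPM and Cd300c at 0.289 to 3.66 CPM. Klk1, the 1 marker of the list under 1 CPM in every library, was at 0 in 6 of the 9. The 7 mature B cell markers in the table summed to 18.9 to 44.2 CPM with EV and 15.98 to 39.6 CPM with sgZrsr2 (r = 0.864, adjusted permutation p = 0.0289; rho = 0.850, adjusted 0.0172; r = 0.904 without those mice). Ms4a1, which encodes CD20 of mature B cells, was at most 0.465 CPM and at 0 in 3 libraries.

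The 8 mature T cell markers summed to 1.91 to 10.1 CPM with EV and 3.87 to 10.3 CPM with sgZrsr2. Their sum passed for rho alone (r = 0.674, adjusted permutation p = 0.0810; rho = 0.767, adjusted 0.0455; r = 0.622 without EV mice 1 and 2). Cd3e, Cd3d, Cd3g and Trac, which mature T cells need, were each at most 0.0873 CPM. The lists of LSK (r = 0.596), monocyte and macrophage (0.419), NK (0.223), erythroid (-0.06), neutrophil (-0.10) and megakaryocyte (-0.25) markers did not pass (adjusted permutation p for r 0.140 to 0.877). The erythroid sum was 20.3 to 94.6 CPM with EV and 53.4 to 182 CPM with sgZrsr2. In sgZrsr2 mice 1 and 2 it was mostly the beta-globin gene Hbb-bt, at 46.2 and 42.3 CPM, while Car1, the carbonic anhydrase of red cell precursors, was at 25.4 CPM or more in EV mouse 5 and sgZrsr2 mice 3 and 5 and at most 0.422 CPM elsewhere. The megakaryocyte sum was 189 to 408 CPM with EV and 288 to 585 CPM with sgZrsr2, and the neutrophil sum 2257 to 3005 CPM and 2749 to 3948 CPM. Low totals went with low levels in sgZrsr2 mice 1 and 2 (23238264 and 25857723 counts), while EV mouse 4, low for 7 of the 9 genes, had the most counts of all (45585531). The part of depth and of these other cells in the levels of the 9 genes was not tested.

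With EV mouse 5 and sgZrsr2 mice 3 and 5, the libraries with the highest erythroid sums, left out together, all 9 fitted values were below 0, with a median of -1.31. Dntt (log2 fold change -1.76), Ebf1 (-4.96) and Rag1 (-5.11) then had an unadjusted edgeR p under 0.05, where 11.0% of all genes did, and 0 of 9 passed the adjusted threshold (edgeR adjusted p from 0.342). The sgZrsr2 group of this fit is mice 1 and 2 alone, the nearest pair of libraries. Without mice 1 and 2 the median was -0.09 and 6 of the 9 were below 0. With 1 library left out, the count at an unadjusted p under 0.05 was 2 of 9 without EV mouse 4, Dntt and Notch1 (4.12% of all genes), 1 of 9 without sgZrsr2 mouse 3, Dntt (4.94%), and 0 without any other. In limma-voom with quality weights it was 3 of 9, Dntt, Il7r and Notch1 (17.1% of all genes).

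Genes that surround the 9 in the lymphoid programme were counted from 7 lists. In each list 0 genes passed the adjusted threshold, and the 3 with the smallest p are named. The list of lymphoid-primed progenitor genes had 11 of 16 tested below 0 and 5 above, with a median log2 fold change of -0.10 and 0 at an unadjusted p under 0.05. Flt3, the cytokine receptor of these progenitors, averaged 412 ± 113 CPM (SD, n = 5) in the EV group and 317 ± 61.6 CPM (SD, n = 4) in the other, for a fold change of -0.38 on the log2 scale (SE 0.22). Cd52, a surface glycoprotein of leukocytes, was at 45.6 ± 11.49 and 37.6 ± 1.70 CPM, and Spi1, which encodes PU.1, at 198 ± 35.1 and 176 ± 9.54 CPM.

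The B lineage list had 14 of 16 tested below 0 and 2 above, a median of -0.39, and 0 at an unadjusted p under 0.05. Igll1 (2.18 ± 2.81 and 0.910 ± 0.567 CPM; log2 fold change -1.24, SE 0.80) and Vpreb1 (2.56 ± 2.93 and 1.23 ± 0.707 CPM; -1.05, SE 0.71) had an SD with EV larger than the mean, with EV mouse 1 far above the other libraries. Rhoh, a GTPase of blood cells, was at 47.2 ± 3.27 and 52.6 ± 4.14 CPM. The list varied with the mice as the 9 genes did: sgZrsr2 mouse 3 was among the 3 highest libraries for 15 of the 16 genes and EV mouse 1 for 13, and sgZrsr2 mice 1 and 2 were each among the 3 lowest for 11. Of the T and NK lineage list 9 of 16 were below 0 and 7 above, with a median of -0.11 and 0 at an unadjusted p under 0.05. Id2, an inhibitor of E proteins, was at 20.4 ± 11.3 and 12.3 ± 3.84 CPM, with EV mouse 3 at 39.6 CPM. Thy1, a surface protein of T cells and of some progenitors, was at 13.4 ± 2.92 and 19.4 ± 8.30 CPM, and Cd4 at 0.651 ± 0.188 and 1.02 ± 0.409 CPM.

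Partners of Notch1 were counted in a list of 22 genes of that pathway, 9 below 0 and 13 above, with a median of 0.06. The ligand gene Dll1 was the 1 with an unadjusted p under 0.05 (3.87% of all genes were higher at that threshold). It was low, averaging 0.726 ± 0.318 CPM in the EV group and 1.48 ± 0.248 CPM in the other, with a fold change of 1.04 on the log2 scale (SE 0.37; edgeR adjusted p = 0.714). The coactivator gene Maml1 was at 45.7 ± 6.93 and 56.0 ± 7.02 CPM and Ncstn, a subunit of gamma-secretase, which releases active Notch, at 93.2 ± 7.28 and 107 ± 5.93 CPM. Partners of Il7r were 4 below 0 and 8 above of 12, with a median of 0.11 and 0 at an unadjusted p under 0.05. The common gamma chain Il2rg, the other chain of the receptor, was at 81.8 ± 6.25 and 95.7 ± 10.5 CPM, Jak1, its kinase, at 233 ± 24.3 and 259 ± 14.9 CPM, and the related cytokine gene Tslp at 0.335 ± 0.165 and 0.679 ± 0.316 CPM.

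Partners of the recombinase and of Dntt, the end-joining genes, were 8 below 0 and 4 above of 12, with a median of -0.14. Xrcc6, which encodes the DNA end-binding protein Ku70, was the 1 with an unadjusted p under 0.05 (2.98% of all genes were lower at that threshold), at 91.6 ± 7.89 and 76.9 ± 6.82 CPM, which on the log2 scale is a fold change of -0.25 (SE 0.10; edgeR adjusted p = 0.714). Hmgb2 (575 ± 71.0 and 476 ± 91.1 CPM) and Hmgb1 (826 ± 118 and 720.2 ± 184 CPM), which encode DNA-bending cofactors of the recombinase, followed. The Ikaros family and its chromatin partners were 10 below 0 and 4 above of 14, with a median of -0.11. Hdac1, a histone deacetylase of the complex that Ikaros binds, was the 1 gene of the 7 lists whose groups did not overlap, where 3.06% of all genes did not. Hdac1 was also the 1 of the 14 with an unadjusted p under 0.05, where 2.98% of all genes were lower at that threshold. It ranged from 134 to 146 CPM in the EV group and from 115 to 130.04 CPM in the other, with a fold change of -0.19 on the log2 scale (SE 0.09; edgeR adjusted p = 0.714). Mta1 (220.02 ± 12.5 and 196 ± 15.997 CPM) and Ikzf5 (43.0 ± 4.08 and 50.6 ± 6.73 CPM) had larger p-values.

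**Figure D5:**
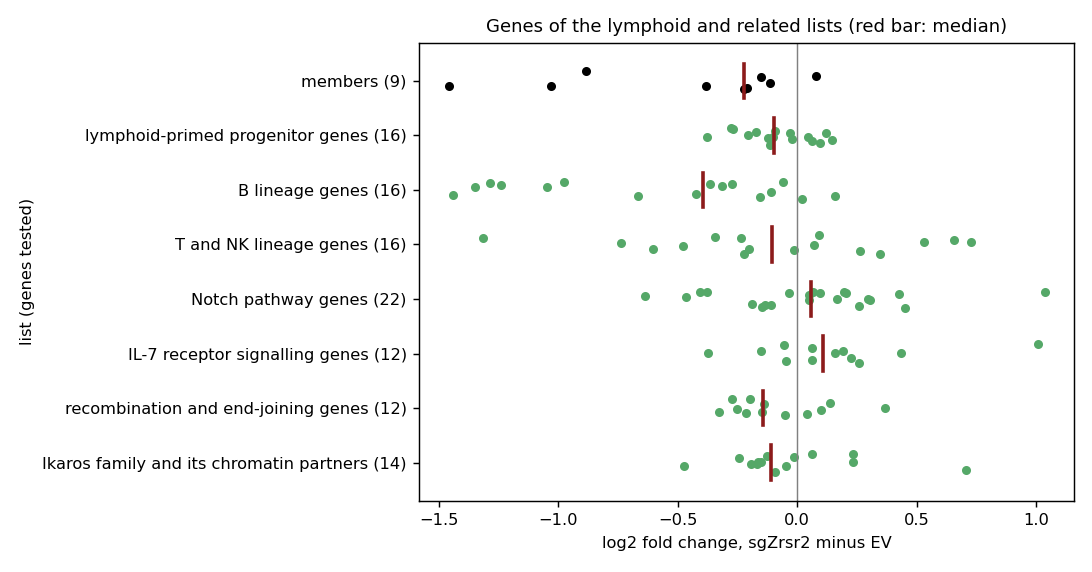
Log2 fold change (horizontal axis, sgZrsr2 minus EV) of each tested gene of the 9 members (black) and of the 7 lists (green), with the median of each as a red bar and the number of genes tested in brackets; vertical scatter within a row has no meaning. The B lineage list has the lowest median (-0.39) and the list of Il7r partners the highest (0.11), and 0 of the genes shown passed the adjusted threshold.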

How the data were processed

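The data are bulk RNA-seq of sorted LSK cells, with 1 library per mouse. The authors deposited RSEM expected counts per Ensembl gene, not normalized; per the submitters' processing notes, cutadapt 1.11 and RSEM 1.2.30 were used with GRCm38, and per the labels' protocols libraries were made from 5 ng of total RNA by polyA selection and PCR. RSEM divides reads that match several genes, so 9.78% to 13.3% of the values of a library were not whole; the aligner, annotation release and strand setting are not given in the sources used here.

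Expected counts were rounded, filtered with filterByExpr (minimum count 10, minimum total 15), scaled by TMM and compared with edgeR 4.0.16 (estimateDisp, glmQLFit, glmQLFTest; R 4.3.3), with Benjamini-Hochberg adjustment over 14944 genes. The SE is the log2 fold change divided by the square root of F. Alternatives were other scalings, filters and dispersion methods, DESeq2 1.42.0, limma 3.58.1, the mouse number as a block, unrounded counts, leaving out libraries and averaging sgZrsr2 mice 1 and 2; leaving out sgZrsr2 mice 1 and 2 together was added after the data were examined. The 9 genes are always named, with Zrsr2; of each list the 3 genes with the smallest p are named, and the 5 genes most correlated with Dntt and with the mean of the 9. Cell type markers were summed as CPM. The members, lists and alternatives were chosen with earlier results of these data known. Promoter sequences are from RefSeq. Intervals and limits cover counting error only, since PCR reads without molecular identifiers are not independent molecules. The level of 1 cell type marker is not reported here.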

Additional observations from a re-analysis of the deposited data

Results flagged for a closer look

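Single libraries that stood apart within their group were sought for each of the 9 genes, as a gap between the extreme library and the next one that is large beside the span of all libraries in the group. This was found in 2 of 18 sets of values, where chance flags about 1 in 20. Ebf1 was at 9.24 CPM in EV mouse 1 and the next EV library was at 1.19 CPM, a gap of 0.898 of the span. Notch1 was at 245 CPM in sgZrsr2 mouse 3 and the next sgZrsr2 library was at 184 CPM, a gap of 0.931 of the span. Vpreb1 and Igll1 were also highest in EV mouse 1, and Il7r and Ccr9 in sgZrsr2 mouse 3.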

How the results depend on the processing

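The count of the 9 genes past the adjusted threshold was 0 in all 13 alternatives and in all 9 fits without a library. Over all genes the count was 26 in the DESeq2 Wald test, of 22285 genes given a p. It was 1 of 15257 with sgZrsr2 mice 1 and 2 averaged, and 0 in the 11 others and in the 9 fits without a library. At an unadjusted p under 0.05 there were 1 of the 9 genes in DESeq2 (6.17% of all genes), 3 in limma-voom with quality weights (17.1%), 3 without EV mouse 5 and sgZrsr2 mice 3 and 5 (11.0%), and 0 to 2 without 1 library: 2, Dntt and Notch1, without EV mouse 4 (4.12%) and 1, Dntt, without sgZrsr2 mouse 3 (4.94%). The 3 in limma-voom were Dntt (log2 fold change -1.74, limma adjusted p = 0.135), Il7r (-1.10, adjusted p = 0.291) and Notch1 (-0.53, adjusted p = 0.250). The quality weights of that fit were 2.21, 4.52, 0.294, 0.497 and 1.19 in mice 1 to 5 of the EV group. In mice 1, 2, 3 and 5 of the sgZrsr2 group they were 1.36, 1.57, 0.416 and 0.653. That fit thus leaned most on EV mice 1 and 2 and on sgZrsr2 mice 1 and 2. The median log2 fold change of the 9 genes was -1.31 without EV mouse 5 and sgZrsr2 mice 3 and 5. With 1 library left out it ran from -0.997 (without sgZrsr2 mouse 3) to -0.05 (without EV mouse 1). It also moved by over 1.5 times without EV mouse 2 (-0.12), EV mouse 3 (-0.37), EV mouse 4 (-0.43) or sgZrsr2 mouse 1 (-0.12), with limma-voom (-1.10), and with mice 1 and 2 averaged (-0.13) or left out (-0.09). The cause was not tested.

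Directions that turned were those of Ccr9 with limma-voom (-0.61), with the replicate block (-0.40), without EV mouse 4 (-0.15), without sgZrsr2 mouse 3 (-0.64) and without the 3 libraries (-0.80); of Il7r with sgZrsr2 mice 1 and 2 averaged (0.0077) or left out (0.38), without EV mouse 1 (0.14) and without sgZrsr2 mouse 1 (0.04); of Rag2 without sgZrsr2 mouse 1 (0.0035) and without mice 1 and 2 (0.33); and of Ebf1 (0.29) and Satb1 (1.14e-05) without EV mouse 1. Without 1 library, Rag2 went down to -1.03 and Ebf1 to -2.66 (both without sgZrsr2 mouse 3) and Satb1 to -0.27 (without EV mouse 4). Dntt, Rag1, Notch1 and Ikzf1 stayed below 0 in all 22 fits. In the paired fit with the mouse number as a replicate block the median was -0.68 and 0 genes were called. The labels give mouse numbers and do not say whether equal numbers mean paired mice. The deviations of same-numbered libraries correlated at -0.23, -0.09, -0.40 and 0.37 for mice 1, 2, 3 and 5. Only the library of sgZrsr2 mouse 5 correlated best with its own number, and that of EV mouse 5 correlated best with sgZrsr2 mouse 3 (0.52). The nearest libraries across the groups were those of mouse 5, with a median difference of 4.60% as a coefficient of variation. These values cannot decide whether the mice were paired.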
